A study of Saccharomyces cerevisiae with 18 samples.

Results

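The major hexose transporters of baker's yeast, HXT1 to HXT7, were taken by systematic name from a table of 5861 entries. All 7 genes had an entry, and 6 of them had a value on every array. The entry of HXT6 (YDR343C) held no value on any array, as did 122 entries in all, so that HXT6 is named here without a level. The other members were HXT1 (YHR094C), HXT2 (YMR011W), HXT3 (YDR345C), HXT4 (YHR092C), HXT5 (YHR096C) and HXT7 (YDR342C). They were set beside all 5739 genes with values.

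Hexose transporters of this family carry glucose and related sugars across the plasma membrane by facilitated diffusion, and yeast chooses among them by the sugar supply. Hxt1 and Hxt3 are low-affinity carriers that serve growth on plentiful glucose. Hxt2, Hxt4, Hxt6 and Hxt7 have a higher affinity and serve growth when glucose is scarce, and Hxt5 is known from slowly growing and starved cells. Transcription of several of these genes is held down by the repressor Rgt1, which is released when the membrane sensors Snf3 and Rgt2 detect glucose, while Mig1 and Mig2 repress genes for scarce-glucose growth when glucose is plentiful.

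The RNA came from strains EPY330 and EPY338 of *S. cerevisiae*, which are described only as engineered and whose alleles are not given in the sources used here. From 3 colonies of each strain, pre-cultured without histidine, methionine and leucine, cultures were induced in YPG medium for 24 h at the same temperature, and their total RNA was pooled by strain. Each pool was labeled 3 times with each of 3 methods, direct random, indirect and ds-cDNA, which gave 18 NimbleGen arrays in 6 groups of 3. The direct random method extends dye-bearing random primers on total RNA, the indirect method couples a dye to cDNA after reverse transcription, and the ds-cDNA method labels cDNA after it has been made double-stranded. The 3 arrays of a group therefore share 1 RNA pool, and p-values measure the spread of labeling, hybridization and scanning, not that of cultures. As whole cultures were sampled, a gene used in more cells and a gene used more strongly per cell cannot be told apart.

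Values are log2 intensities, and fold-changes are EPY330/EPY338. A gene is called at an adjusted p under 0.05 from limma, with Benjamini-Hochberg adjustment over all 5739 genes. Where 3 values follow each other for the methods, they stand in the order direct random, indirect, ds-cDNA. Over all genes the intensities ran from 7.25 to 15.88, with array medians between 9.99 and 10.12. Probes differ in brightness for reasons other than transcript number, so the levels of members are compared between groups and not with each other, and an array's dimmest, median and brightest values serve only to show where on the scale a value lies. The galactose enzymes had group means of 14.51 to 15.17 for GAL1, 13.10 to 14.36 for GAL7 and 13.50 to 14.62 for GAL10.

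HXT3 and HXT4 were higher in EPY330 with every labeling method, 3.17- to 7.34-fold for HXT3 and 4.82- to 6.06-fold for HXT4. HXT2 and HXT7 were called higher in EPY330 with the direct random method, at 1.20-fold and 1.27-fold. HXT5 was called lower in EPY330, at 0.864-fold on direct random arrays and 0.801-fold on indirect arrays. HXT1 was not called with any method. With the direct random method 4 members were called higher and 1 lower, where 22.4% of all genes were called, 11.0% higher and 11.4% lower. Indirect labeling gave 2 members higher and 1 lower (9.08% of all genes called, 4.48% higher and 4.60% lower). The ds-cDNA arrays gave 2 members higher and none lower (6.33% of all genes called, 3.76% higher and 2.56% lower). The median log2 fold-change of the 6 members was 0.30, 0.31 and 0.41 by method, while that of all genes was -0.0088, -0.023 and 0.0016.

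**Figure D1:**
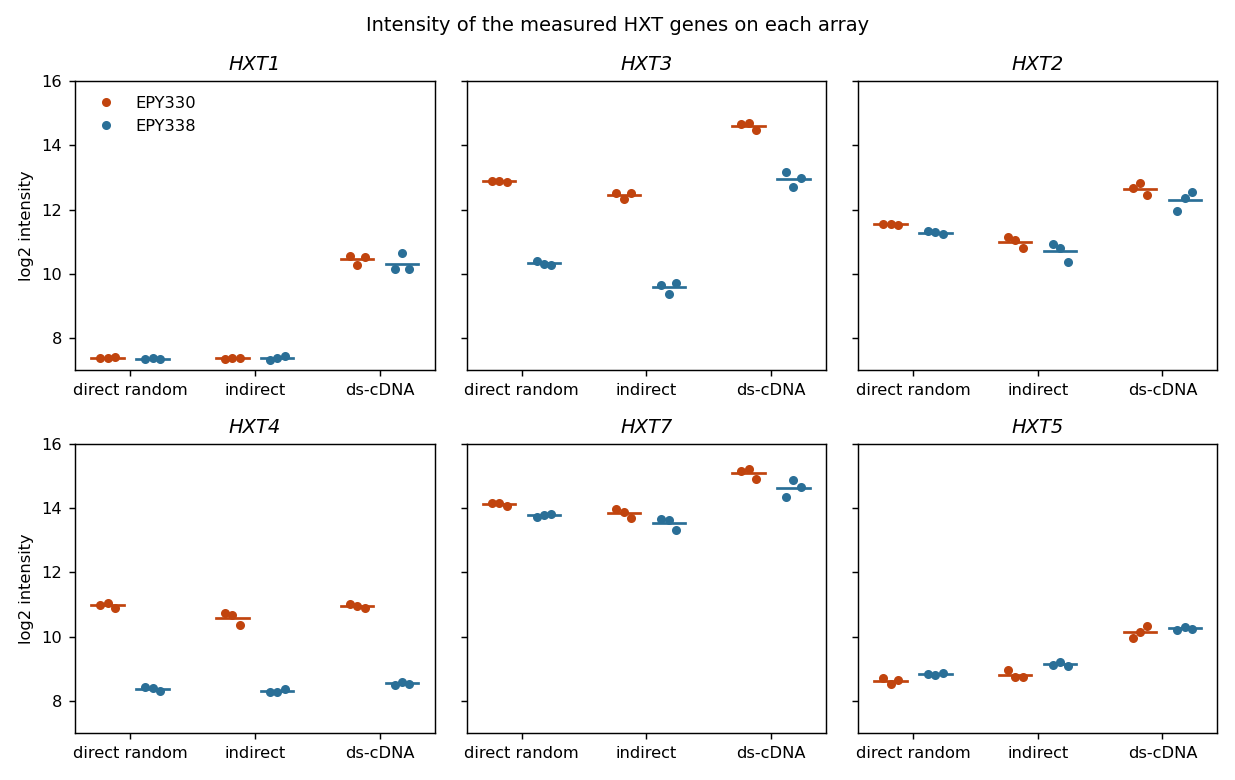
Log2 intensity of the 6 measured members on each of the 18 arrays, by labeling method (x axis) and strain (colour). Points are arrays and bars are means of 3; the strains are far apart for HXT3 and HXT4 with all 3 methods, and HXT1 lies near 7.4 on direct random and indirect arrays but above 10 on ds-cDNA arrays.

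**Figure D2:**
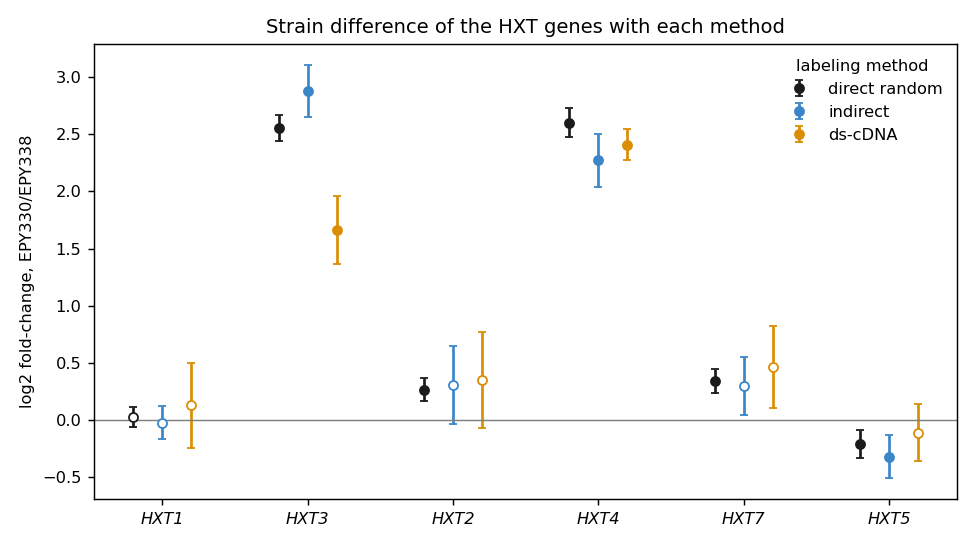
Log2 fold-change EPY330/EPY338 of each member with each labeling method, with the 95% confidence interval from limma (3 arrays per strain). Filled points are called at an adjusted p under 0.05; HXT3 stands at 2.55 (direct random), 2.88 (indirect) and 1.66 (ds-cDNA), while HXT4 stays between 2.27 and 2.60.

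Of the low-affinity carriers, HXT3 showed the clearest difference between strains. With the direct random method its log2 intensity was 12.89, 12.87 and 12.87 in EPY330 and 10.41, 10.30 and 10.27 in EPY338. Indirect labeling gave 12.53, 12.33 and 12.51 in EPY330 and 9.65, 9.38 and 9.71 in EPY338. Every EPY330 array lay above every EPY338 array by more than 2 log2 units with both methods. With the ds-cDNA method the values were 14.66, 14.68 and 14.49 in EPY330 and 13.16, 12.71 and 12.98 in EPY338, again without overlap but closer together. Groups without overlap and with EPY330 higher were found for 19.3%, 12.2% and 15.1% of all genes by method, and with EPY330 lower for 22.0% on direct random arrays, 1033 of 5739 genes on indirect arrays and 14.1% on ds-cDNA arrays.

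For HXT3 the direct random arrays gave a fold-change of 5.87 (95% confidence interval 5.44 to 6.34, limma adjusted p 1.62e-07). The indirect arrays gave 7.34 (6.26 to 8.61, adjusted p 1.27e-06), and the ds-cDNA arrays gave 3.17 (2.58 to 3.89, adjusted p 0.00119). By size of the log2 fold-change in either direction HXT3 ranked 8, 4 and 14 among all genes. A fold-change above 2 in either direction was measured for 0.767%, 0.889% and 0.662% of all genes with the 3 methods in this order.

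The dependence of the HXT3 fold-change on labeling was tested by the interaction of strain and method in 1 fit of all 18 arrays. The log2 fold-change was 0.89 higher with the direct random than with the ds-cDNA method (95% confidence interval 0.58 to 1.20, adjusted p 0.00456). It was 1.21 higher with the indirect than with the ds-cDNA method (0.91 to 1.52, adjusted p 0.00019), the third largest such difference of all genes. Over all genes, 0.575% and 0.697% differed in these comparisons, and HXT3 was the only one of the 6 members. Between the direct random and indirect methods the difference of -0.32 (interval -0.63 to -0.017) had an adjusted p of 0.837. No gene (0% of all) was called in that comparison, in which 325 of 5739 genes had an unadjusted p under 0.05.

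The smaller HXT3 fold-change with the ds-cDNA method is the same quantity as an unequal gain of intensity in the strains. From the direct random to the ds-cDNA method, the HXT3 level rose by 2.62 log2 units in EPY338 (95% confidence interval 2.40 to 2.84) and by 1.73 in EPY330 (1.51 to 1.95). Against the indirect method the gains were 3.37 in EPY338 (3.15 to 3.58) and 2.15 in EPY330 (1.94 to 2.37). On the ds-cDNA arrays HXT3 lay between 1.18 and 3.08 log2 units under the brightest gene of its array. The part of the upper end of the scale in this difference was not tested.

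**Figure D3:**
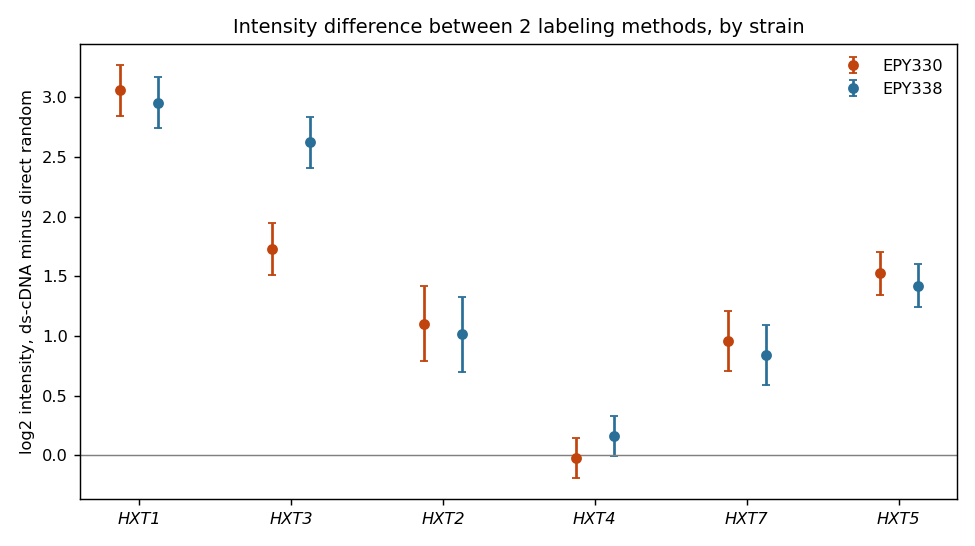
Log2 intensity with the ds-cDNA method minus that with the direct random method, for each member and strain, with the 95% confidence interval from limma on all 18 arrays. The strains differ for HXT3 (1.73 in EPY330 and 2.62 in EPY338), and HXT1 shows gains near 3 in both strains, while HXT4 shows gains near 0. The direct random values of HXT1 lay at the dim end, so the size of its gains is not settled.

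HXT1, the other low-affinity carrier, was not called between strains, and its intensity depended on the labeling method. With the direct random method its values were 7.39, 7.37 and 7.41 in EPY330 and 7.36, 7.38 and 7.35 in EPY338. On indirect arrays they were 7.35, 7.37 and 7.37 in EPY330 and 7.33, 7.38 and 7.46 in EPY338. All 12 of these values were within 0.154 log2 units of the dimmest gene on their array, and a difference between strains was not detectable at this level.

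With the ds-cDNA method HXT1 gave 10.55, 10.26 and 10.53 in EPY330 and 10.16, 10.64 and 10.15 in EPY338, and the strains overlapped. Averaged over the strains, its intensity with the ds-cDNA method was 8.04-fold that with the direct random method. The 95% confidence interval was 7.23 to 8.94 (limma adjusted p 9.76e-17). As the direct random values lay at the dim end, the size of this difference for the transcript is not settled. The fold-change between strains was 1.10 on ds-cDNA arrays (95% confidence interval 0.848 to 1.42, adjusted p 0.668), which leaves room for a change of up to 1.42-fold. The adjusted p values on direct random and indirect arrays, 0.604 and 0.878, say little about the transcript.

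Because HXT1 moved from the dim end of the arrays to above their median, the same pattern was counted over all genes after its values had been seen. Among the dimmest 5% of genes on all 12 direct random and indirect arrays were 235 genes, and 15 of these (6.38%) lay above the array median on all 6 ds-cDNA arrays. HXT1 was one of the 15, and so was HXT15, a minor family member, whose mean level was 7.34, 7.36 and 10.47 by method. Of 15 measured transporters 6 were among the dimmest, and the other 4 did not lie above the median on all ds-cDNA arrays. From direct random to ds-cDNA arrays the means were 7.32 and 9.77 for HXT13, 7.33 and 9.66 for HXT17, 7.36 and 7.71 for HXT10, and 7.31 and 7.32 for HXT14.

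Among the high-affinity carriers, HXT4 showed the clearest difference between strains. With the direct random method the log2 intensity of HXT4 was 10.98, 11.05 and 10.89 in EPY330 and 8.42, 8.39 and 8.31 in EPY338. The indirect method gave 10.72, 10.67 and 10.35 in EPY330 and 8.28, 8.29 and 8.37 in EPY338. With the ds-cDNA method the arrays read 11.00, 10.95 and 10.90 in EPY330 and 8.49, 8.60 and 8.53 in EPY338. The strains did not overlap with any method. The group means were 10.98, 10.58 and 10.95 in EPY330 and 8.38, 8.31 and 8.54 in EPY338 by method.

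For HXT4 a fold-change of 6.06 was measured on direct random arrays (95% confidence interval 5.55 to 6.62, limma adjusted p 1.77e-07). It was 4.82 on indirect arrays (4.11 to 5.66, adjusted p 3.97e-06) and 5.31 on ds-cDNA arrays (4.84 to 5.83, adjusted p 2.19e-05). HXT4 ranked 6, 9 and 3 among all genes by size of change. The interaction of strain and method was not called for HXT4. On the log2 scale the direct random fold-change exceeded that of the ds-cDNA method by 0.19 (interval -0.046 to 0.43, adjusted p 0.598) and that with the indirect method by 0.33 (0.093 to 0.57, adjusted p 0.621).

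HXT3 and HXT4 were both called higher in EPY330 with all 3 methods, as were 2.14% of all genes. Averaged over the strains, HXT4 was the member whose intensity moved least between the ds-cDNA method and the others. It was 0.069 log2 units lower with the direct random method (95% confidence interval of the difference -0.19 to 0.049, adjusted p 0.25), and this sign changed when each array was centred on its median.

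HXT7 was brighter in EPY330 by a small margin. Its direct random values were 14.15, 14.15 and 14.08 in EPY330 and 13.73, 13.79 and 13.82 in EPY338. Indirect arrays gave 13.97, 13.87 and 13.70 in EPY330 and 13.66, 13.64 and 13.32 in EPY338. On ds-cDNA arrays the values were 15.15, 15.21 and 14.91 in EPY330 and 14.34, 14.87 and 14.66 in EPY338. All EPY330 arrays lay above all EPY338 arrays with each method, which held for 5.18% of all genes.

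HXT7 had a direct random fold-change of 1.27 (95% confidence interval 1.18 to 1.37, adjusted p 0.00223). The value was 1.23 on indirect arrays (1.04 to 1.47, adjusted p 0.132) and 1.38 on ds-cDNA arrays (1.08 to 1.77, adjusted p 0.123), neither of which was called. In a fit that paired the indirect arrays by replicate number HXT7 was called (adjusted p 0.0288). With 1 fit of all 18 arrays, in contrast, the direct random value was not called (adjusted p 0.0697), whereas the ds-cDNA value was (adjusted p 0.0124). The ds-cDNA value was also called with a trended robust prior (adjusted p 0.0422) and without the dimmest 25% of genes (adjusted p 0.0377), and the indirect value with the trended prior (adjusted p 0.0371). HXT6 and HXT7 are neighbours in the genome and nearly identical in sequence, so HXT7 probes can take up HXT6 transcripts, and the 2 genes cannot be told apart here. On the ds-cDNA arrays HXT7 lay 0.654 to 1.51 log2 units under the brightest gene.

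HXT2 followed the same direction as HXT7. The direct random arrays gave 11.56, 11.56 and 11.53 in EPY330 and 11.33, 11.29 and 11.23 in EPY338. On indirect arrays the values were 11.16, 11.04 and 10.82 in EPY330 and 10.92, 10.81 and 10.36 in EPY338. The ds-cDNA arrays read 12.66, 12.84 and 12.45 in EPY330 and 11.96, 12.37 and 12.56 in EPY338. The strains overlapped on indirect and on ds-cDNA arrays but not on direct random arrays.

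HXT2 rose 1.20-fold on direct random arrays (95% confidence interval 1.12 to 1.29, adjusted p 0.00573). Its fold-change was 1.24 on indirect arrays (0.977 to 1.57, adjusted p 0.243) and 1.28 on ds-cDNA arrays (0.957 to 1.71, adjusted p 0.272). The replicate SD of HXT2 was 0.039, 0.24 and 0.26 by method, against medians over all genes of 0.073, 0.10 and 0.11. Pairing the indirect arrays by number brought HXT2 to an adjusted p of 0.0365, and 5 of the 6 members were then called with that method. In the fit of all 18 arrays the direct random value of HXT2 was not called (adjusted p 0.281).

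HXT5, the carrier of slowly growing cells, moved the other way. Its direct random values were 8.70, 8.53 and 8.63 in EPY330 and 8.83, 8.80 and 8.86 in EPY338. On indirect arrays it read 8.96, 8.74 and 8.74 in EPY330 and 9.10, 9.21 and 9.09 in EPY338. All EPY330 arrays lay below all EPY338 arrays with these methods. The same held for 22.0% of all genes on direct random arrays and for 1033 of 5739 genes on indirect arrays. With the ds-cDNA method the arrays gave 9.94, 10.15 and 10.34 in EPY330 and 10.22, 10.29 and 10.24 in EPY338, and the strains overlapped.

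HXT5 had fold-changes of 0.864 on direct random arrays (95% confidence interval 0.793 to 0.942, adjusted p 0.029), 0.801 on indirect arrays (0.704 to 0.912, adjusted p 0.0474) and 0.928 on ds-cDNA arrays (0.781 to 1.10, adjusted p 0.594). Both calls were close to the threshold. The direct random call was lost without any 1 of 5 of the 6 arrays (adjusted p 0.0611 to 0.0813), and it held only without replicate 1 of EPY330. The indirect call was lost without any 1 of 5 arrays as well (adjusted p 0.0729 to 0.16) and held without replicate 1 of EPY330. With the methods' t-test neither was called (adjusted p 0.0865 and 0.16).

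Averaged over both strains, 5 of the 6 members were dimmer with the direct random than with the ds-cDNA method at an adjusted p under 0.05, where 87.1% of all genes differed and 49.7% were dimmer. All 6 were dimmer with the indirect than with the ds-cDNA method, where 89.0% of all genes differed and 48.6% were dimmer. The intensity with the ds-cDNA method was 4.52-fold that of the direct random method for HXT3 (95% confidence interval 4.06 to 5.03), 2.78-fold for HXT5 (2.54 to 3.03), 2.08-fold for HXT2 (1.78 to 2.43) and 1.87-fold for HXT7 (1.65 to 2.11). By size of this difference in either direction they ranked 303 (HXT3), 896 (HXT5), 1623 (HXT2) and 2017 (HXT7) among all genes. The median of the signed differences over all genes, direct random minus ds-cDNA, was -0.12 log2 units, in which gains and losses offset each other. Between the direct random and indirect methods the differences were smaller, from 0.841 for HXT5 to 1.50 for HXT3 as direct random over indirect, and 5 of 6 members were called, with HXT5 the dimmer one under the direct random method (64.5% of all genes called, 34.0% dimmer with the direct random method). HXT1 was not called there, where both methods read it at the dim end, and no ratio is given.

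Put in order over the 6 groups, HXT3 was brightest in EPY330 with the ds-cDNA method and dimmest in EPY338 with the indirect method. Of neighbouring groups in this order, 1 pair overlapped, EPY338 with the ds-cDNA method (12.95) and EPY330 with the direct random method (12.88). For HXT4 the 3 EPY330 groups stood above the 3 EPY338 groups whatever the method. For HXT1, HXT2 and HXT5 both ds-cDNA groups stood above the other 4, and the same held for HXT7.

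The genes whose pattern was most like that of a member were found by Pearson correlation over the 18 arrays after the mean of each method was subtracted. The arrays share 2 RNA pools, so the coefficients carry no test. As only method means were subtracted, they mix a common strain difference with deviations that genes share on single arrays. HXT3 was nearest to MIG2 (r = 0.995), a zinc-finger repressor that acts in glucose repression. ICY1 (0.992) and SKS1 (0.989), a protein kinase linked to growth on low glucose, followed. HXT4 was nearest to PDR16 (0.995), a phosphatidylinositol transfer protein, PDR15 (0.994), an ABC transporter of the pleiotropic drug resistance group, and YPL088W (0.994), a putative aryl-alcohol dehydrogenase. For HXT5 the nearest were ARG7 (0.893), an arginine synthesis enzyme, WSC4 (0.872) and PMI40 (0.868), a mannose-6-phosphate isomerase. HXT3 and HXT4 correlated with each other at 0.967 and HXT2 with HXT7 at 0.912.

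The strain fold-changes of these genes stood beside those of HXT3 and HXT4 as follows. MIG2 had fold-changes of 5.91, 6.76 and 3.10 by method, and its log2 fold-change was 0.93 higher with the direct random than with the ds-cDNA method (95% confidence interval 0.69 to 1.17, adjusted p 0.000228). ICY1 gave 3.76, 3.96 and 2.11. PDR16, nearest to HXT4, gave 7.07, 6.56 and 6.43, and PDR15 gave 5.29, 5.29 and 4.90.

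A list of 23 genes of glucose sensing, repression and hexose phosphorylation was measured in full. On direct random arrays 2 were called higher and 4 lower, on indirect arrays 1 higher and 1 lower, and on ds-cDNA arrays 2 higher and none lower. Of the list 6, 2 and 2 genes were thus called by method, beside 22.4%, 9.08% and 6.33% of all genes. With the indirect arrays paired by number 3 were called there, RGT2 being the one added (adjusted p 0.04). The median log2 fold-change of the list was -0.064, -0.025 and -0.025. The genes called in the same direction with at least 2 methods were MIG2, HXK1 and RGS2. HXK1, a hexokinase, fell to 0.783-fold on direct random arrays (adjusted p 0.00356) and 0.809-fold on indirect arrays (adjusted p 0.0374). RGS2, a regulator of G-protein signaling, rose 1.14-fold with the direct random method (adjusted p 0.0166) and 1.40-fold with the ds-cDNA method (adjusted p 0.00509). Its EPY338 means, 7.57 on direct random and 7.79 on ds-cDNA arrays, lay near the dim end, so the sizes of these changes are not settled.

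The sensors SNF3 and RGT2 and the repressors RGT1 and MIG1 were not called with any method in the unpaired fits. The repressor MIG2, in contrast, was called higher in EPY330 with every method. SNF3 had fold-changes of 0.946, 0.844 and 0.955 by method, with adjusted p of 0.518, 0.0582 and 0.742. RGT2 had 1.11, 1.23 and 1.26, with adjusted p of 0.142, 0.0657 and 0.0954. RGT1 had 0.957, 0.951 and 0.971, with adjusted p of 0.517, 0.639 and 0.90. The fold-change of MIG1 was 0.866, 0.833 and 0.937, with adjusted p of 0.0742, 0.366 and 0.485.

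Of HXT8 to HXT17 and GAL2, 9 of 11 genes had values. On direct random and on indirect arrays 3 were called higher and 1 lower, and on ds-cDNA arrays 3 higher and none lower, beside 11.0%, 4.48% and 3.76% of all genes called higher and 11.4%, 4.60% and 2.56% called lower. HXT8, HXT9 and HXT11 were called higher with all 3 methods. HXT9 rose 13.3-fold (confidence interval 11.7 to 15.1), 8.38-fold (7.43 to 9.46) and 3.87-fold (3.14 to 4.78) by method. HXT11 rose 12.9-, 9.71- and 4.19-fold. HXT8 rose 1.38-fold (confidence interval 1.30 to 1.47), 1.33-fold (1.20 to 1.48) and 2.96-fold (2.58 to 3.40). The HXT8 means in EPY338 were 7.40 on direct random and 7.45 on indirect arrays, near the dim end of the arrays as HXT1 was. Those of HXT9 were 7.60 and 7.63. The sizes of the HXT8 and HXT9 fold-changes on direct random and indirect arrays are therefore not settled. On the log2 scale the direct random fold-change minus the ds-cDNA fold-change was 1.78 for HXT9 (adjusted p 1.57e-06), 1.63 for HXT11 (adjusted p 1.57e-06) and -1.10 for HXT8 (adjusted p 1.83e-06). Since the direct random values of HXT8 and HXT9 in EPY338 were near the dim end, the sizes of their differences between methods are not settled. HXT11 in EPY338 had means of 8.16 on direct random and 8.03 on indirect arrays, against 10.40 on ds-cDNA arrays. There 9.81% to 13.8% of genes were dimmer on direct random and 8.47% to 10.4% on indirect arrays. The part of the dim end in the HXT11 values was not tested. The galactose permease GAL2 fell to 0.764-fold on direct random arrays (adjusted p 0.00193) and 0.763-fold on indirect arrays (adjusted p 0.0121), and was 0.849-fold on ds-cDNA arrays (adjusted p 0.231). GAL7, which acts downstream of it, fell with all 3 methods, to 0.767-, 0.752- and 0.666-fold, whereas GAL10 was not called and GAL1 was called with the indirect method only (0.809-fold, adjusted p 0.0469).

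**Figure D4:**
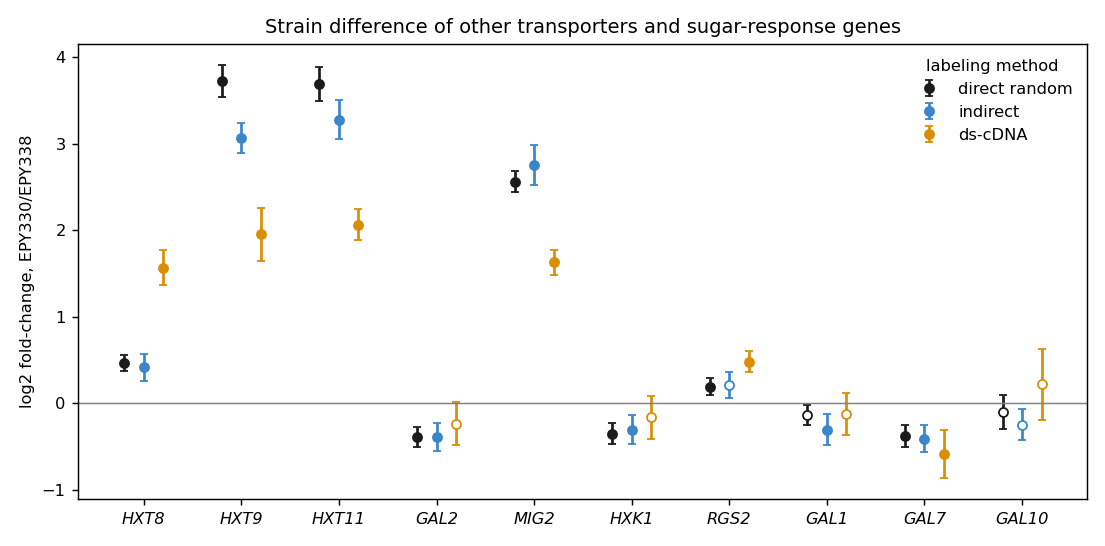
Log2 fold-change EPY330/EPY338 of other transporters, sugar-response genes and galactose genes with each labeling method, with the 95% confidence interval from limma (3 arrays per strain). Filled points are called at an adjusted p under 0.05. HXT9, HXT11 and MIG2 are lower with the ds-cDNA method than with the others, as HXT3 is, and HXT8 reads higher. For HXT8 and HXT9, EPY338 lay near the dim end on the other arrays.

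On yeast assembly R64 the members lie at 3 places. HXT7, HXT6 and HXT3 are grouped on chromosome IV, HXT4, HXT1 and HXT5 on chromosome VIII, and HXT2 stands alone on chromosome XIII. Of the measured members on chromosome IV, HXT3 and HXT7, every EPY330 array lay above every EPY338 array with all 3 methods. On chromosome VIII HXT4 was higher in EPY330 with all 3 methods, and HXT5 had the opposite sign. HXT1, which lies between them, could be read for a strain difference on ds-cDNA arrays only. Of the 6 measured genes that flank the groups, SVF1 beside HXT3 had fold-changes of 0.979, 1.20 and 1.00, and MSR1 beside HXT4 had 0.983, 1.06 and 1.18, none of them called. With the indirect arrays paired by number SVF1 was called (adjusted p 0.0423). YDR341C beside HXT7 and ANY1 beside HXT2 were not called either. CLU1, the next protein-coding gene on the other side of HXT2, rose 1.11-fold with the direct random method (adjusted p 0.0316). PAL2 beside HXT5 fell to 0.78-fold on direct random arrays (adjusted p 0.0106) and 0.797-fold on indirect arrays (adjusted p 0.0227). Of all genes, 22.4%, 9.08% and 6.33% were called by method, so single calls among flanking genes are not particular to these places.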

How the data were processed

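The values analysed are log2 intensities, deposited as 1 value for each gene on each array. The authors summarized NimbleGen probe signals to genes in ArrayStar by RMA with quantile normalization, which forces arrays to nearly 1 distribution, so shifts of all genes together cannot be seen. The genome build of the probes is not given in the sources used here, so no coordinates are given. Entries without values were left out. Symbols came from the R64 annotation (5733 of 5739 genes). Each labeling used 10 μg of RNA; 5 μg of direct random, 0.3 μg of indirect and 4 μg of ds-cDNA product were hybridized. All 18 columns were used, and the number of arrays limits the precision.

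The strain comparison used lmFit and eBayes of limma 3.58.1 (R 4.3.3) on the 6 arrays of each method. Levels and fold-changes between methods were compared in 1 fit of all 18 arrays. The scripts were tested on simulated data. Same-numbered indirect arrays of the strains deviated together (r = 0.12, 0.15 and 0.25, each over the limit of 0.1), so a replicate block is given beside indirect calls it changed. Slides are not in the labels and could not be tested.

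The members and lists were chosen with earlier results of these data known. Named were all members, listed sensing genes called with at least 2 methods in 1 direction, other transporters called with all 3, galactose genes, flanking genes and, for members called with at least 2 methods, the 3 most correlated genes. Sensors, RGT1, MIG1 and dim transporters were named after their values were seen. Alternatives were the methods' t-test, a joint fit, a trended robust prior, a block, median centring, repeated quantile normalization, no dimmest 25% of genes, an adjusted p under 0.01, and leaving out each array.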

Additional observations from a re-analysis of the deposited data

Results flagged for a closer look

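HXT3 was the member whose fold-change differed between labeling methods by a test of the difference itself. Its log2 fold-change EPY330/EPY338 was 0.89 higher with the direct random than with the ds-cDNA method (adjusted p 0.00456) and 1.21 higher with the indirect than with the ds-cDNA method (adjusted p 0.00019). With any 1 of the 18 arrays left out the first difference ran from 0.79 to 1.01 and the second from 1.11 to 1.33, all called. Among the listed genes that were not members, MIG2 (0.93), HXT9 (1.78), HXT11 (1.63) and HXT8 (-1.10) also differed, as direct random minus ds-cDNA log2 fold-change. HXT3 was thus not alone. The sizes for HXT8 and HXT9 are not settled, as their direct random values in EPY338 lay near the dim end.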

How the results depend on the processing

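The HXT3 and HXT4 calls between strains held under every alternative run. Of 1344 recomputed values 1287 were the same, 16 weaker, 6 stronger, 14 moved and 21 reversed. With 1 fit of all 18 arrays 2 members were called with the direct random method. The replicate block, whose numbers paired the indirect arrays, gave 5 members called there, and it changed no count of members with the other methods, although 1 pair of different numbers (r = 0.20) correlated more than 2 of the same-numbered pairs. Over all genes the block moved the calls from 1288 to 924 (direct random), from 521 to 700 (indirect) and from 363 to 115 (ds-cDNA), where the direct random and ds-cDNA arrays share only a number. The indirect count of the glucose sensing list, 2, became 1 at an adjusted p under 0.01 and with the methods' t-test, 5 with 1 fit of all arrays and with a trended robust prior, and 4 after quantile normalization within the method. Leaving out 1 array gave 1 to 3. The ds-cDNA count of this list became 1 with the block and without the dimmest 25% of genes, and the indirect count of other transporters became 2 with the methods' t-test. The cause was not tested in any of these cases.

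Signs changed only for values that were not called. The indirect log2 fold-change of HXT1 was 0.0049 after quantile normalization and ran from -0.051 to 0.011 with 1 array left out. Its level difference, direct random against indirect, was 0.017 after quantile normalization over all arrays and ran from -0.016 to 0.015 with 1 array left out. The level of HXT4, direct random against ds-cDNA, was 0.032 after median centring. With 1 array left out, the difference of the HXT2 log2 fold-change ran from -0.16 to 0.12 (direct random against indirect), from -0.22 to 0.082 (direct random against ds-cDNA) and from -0.21 to 0.13 (indirect against ds-cDNA). That of HXT7 ran from -0.032 to 0.15 (direct random against indirect) and from -0.24 to 0.021 (direct random against ds-cDNA). HXT1 had no value without the dimmest 25% of genes, and no replicate block was fitted for level differences between methods. HXT1 lay at the lower end of the direct random and indirect arrays, which limits what they can show, and RNA of the cultures was pooled before labeling, so no value covers their spread.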
